A study of Mus musculus with 12 samples.

Results

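The CpG cytosines at a coding exon of Runx1 were taken as every cytosine in a CpG context between 92644291 and 92644782 on mouse chromosome 16 (mm9 build) that had a minimum of 10 read-outs in all 12 samples. This rule found 24 cytosines, among 384 CpG cytosines in 14 loci of the whole data set, and no CpG cytosine covered in that interval was lost to the coverage limit. Runx1 encodes a transcription factor that binds DNA through its Runt domain and is required for the first blood stem cells to form. In embryonic stem cells DNA methyltransferases place a methyl group on the cytosine of most CpG dinucleotides, giving 5-methylcytosine (5mC), and the TET enzymes, of which TET1 and TET2 are the main members in these cells, oxidize it to 5-hydroxymethylcytosine (5hmC) and further, which opens a path back to unmodified cytosine. Because CpG is palindromic, each CpG carries a cytosine on both strands, and the 2 cytosines of such a dyad can be read separately.

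The samples came from V6.5 mouse embryonic stem cells, a line of wild-type genotype named v6.5 here, and from V6.5 cells stably depleted of Tet2 with the plasmid pSUPER-puro-Tet2shRNA, named Tet2kd, with 3 replicate cultures of each, all grown with serum and LIF. The Tet2kd cells were picked as single clones after puromycin selection on feeder cells, and how many clones stand behind the 3 cultures is not given in the sources used here. The genomic DNA of each culture was divided into equal parts, one of which was oxidized with KRuO4, so that every culture gave a BS-seq and an oxBS-seq sample of PCR-amplified loci. BS-seq turns unmodified cytosine into T and leaves both 5mC and 5hmC as C, whereas after oxidation 5hmC also appears as T, so that a C in oxBS-seq stands mainly for 5mC. The measure throughout is the C share, the percentage of read-outs of a cytosine that are C. The titles of the parental samples contain the word knock-down, whereas their genotype field and source name give wild-type and v6.5, and they were treated as parental. Tet2 expression was not measured in these data.

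Genomic read-outs per sample ranged from 4505229 to 18096597, and the lowest read-out number at a Runx1 CpG cytosine was 48, on the − strand at 92644538 in v6.5 oxBS-seq replicate 2. There a C share of 41.7% had a Wilson 95% confidence interval from 28.8% to 55.7%, whereas at the most deeply read cytosine, 92644467 in Tet2kd BS-seq replicate 3 with 12039 read-outs, a C share of 69.5% had an interval from 68.6% to 70.3%. These intervals cover counting error only, since amplified read-outs without molecular identifiers are not independent molecules. In the unmethylated lambda DNA added to every library between 0.141% and 0.401% of read-outs were C, and the 159 non-CpG cytosines of the same interval had a median C share of 0.253%. Their mean C share was higher, from 0.758% to 1.12% in single samples, and 21 of the 159 had a mean above 1%.

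Runx1 lies on the − strand of chromosome 16 between 92601712 and 92826311. The interval covers the 192-base coding exon chr16:92644399-92644590 and parts of the introns on both sides. Of 5 annotated transcripts that span the exon, 2 contain it and 3 skip it. The 24 cytosines belong to 15 CpG sites. At 9 sites both strands were read, at 3 sites only the − strand, which is the sense strand, and at 3 sites only the + strand. The exon holds 19 of the cytosines, the intron downstream of it in the transcript direction holds 3 and the upstream intron holds 2. The sequences below are those in which the cytosines lie, written on the sense strand 5′ to 3′, with every CpG in capitals, and they come from the mm9 genome.
upstream intron, chr16:92644591-92644680: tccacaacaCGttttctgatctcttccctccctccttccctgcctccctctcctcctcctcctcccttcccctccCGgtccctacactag
coding exon, chr16:92644399-92644590: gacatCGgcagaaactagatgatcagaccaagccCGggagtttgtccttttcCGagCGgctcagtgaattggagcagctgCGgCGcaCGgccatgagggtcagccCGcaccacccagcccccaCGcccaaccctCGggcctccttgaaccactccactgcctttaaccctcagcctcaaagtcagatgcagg
downstream intron, chr16:92644326-92644398: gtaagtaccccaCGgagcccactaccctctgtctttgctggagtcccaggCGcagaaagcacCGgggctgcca
The exon holds 10 CpG sites in 192 bases and the interval 15 in 492 bases. The ratio of observed to expected CpG was 0.580 in the exon and 0.351 in the whole interval, at a GC content of 60.9% and 59.96%. Of the 9 sense-strand cytosines read in the exon, 4 are the first base of a codon, 3 the second and 2 the third.

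The C share at the Runx1 CpG cytosines was intermediate in v6.5 cells and changed steeply along the interval. In v6.5 BS-seq the mean over the 24 cytosines was 52.7%, 50.0% and 49.5% in the 3 cultures, or 50.8% ± 1.74 (SD, n = 3), while the means of single cytosines ran from 31.0% to 83.8%. The SD between the 24 cytosines was 12.8 percentage points, against a median SD between cultures of 2.63 at one cytosine. Among the 13 other loci the mean C share in v6.5 BS-seq ran from 0.227% to 94.2%, and 11 of them were above Runx1.

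The first CpG cytosine by coordinate, 92644336 on the − strand, lies 63 bases downstream of the exon, the third CpG in the downstream sequence printed above. Its C share in BS-seq was 65%, 60.7% and 63.1% in the v6.5 cultures against 73.0%, 73.4% and 73.0% in the Tet2kd cultures, and in oxBS-seq 56.5%, 46% and 55.6% against 58.8%, 74.3% and 68.7%. In both assays every Tet2kd culture was above every v6.5 culture, although the narrowest distance in oxBS-seq was small beside the spread inside the groups. The next one, 92644348, 51 bases downstream of the exon, had the highest C share of all 24. It was read as C in 84.4%, 84.3% and 82.7% of v6.5 and 81.8%, 84.2% and 86.1% of Tet2kd BS-seq read-outs, and the genotypes overlapped (edgeR adjusted p = 0.743). The oxBS-seq values of 92644348 were 84.1%, 84.0% and 76.5% in the v6.5 cultures against 85.7%, 87.2% and 75.9% in the Tet2kd cultures, which overlapped too (edgeR adjusted p = 0.809). The third cytosine of the downstream intron, 92644386, lies 13 bases from the exon and had a C share of 49.5% ± 2.75 (SD, n = 3) in v6.5 BS-seq.

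Within the exon the C share in v6.5 BS-seq was lowest at the dyad 92644455/92644456, at 32.1% ± 3.04 on the + strand and 35.7% ± 2.16 on the − strand (SD, n = 3), and highest at the dyad 92644506/92644507, at 68.4% ± 4.50 and 71.0% ± 1.98. These sites are the last exon CpG in the transcript direction and the middle one of the closely spaced CGgCGcaCG cluster in the printed exon sequence. The dyad next to the lowest one, 92644466/92644467, was at 57.2% ± 3.47 and 61.3% ± 1.03, so that this pair of neighbouring sites differed by far more than the SDs. From the cluster towards the first base of the exon the values were lower again, with 41.7% ± 3.00 at 92644555 and 37.2% ± 5.18 at 92644584. On the upstream side, 92644604, 14 bases before the exon, had the lowest C share of v6.5 BS-seq, with 37.2%, 29.4% and 26.4% in the v6.5 cultures against 56.4%, 40.5% and 56.6% in the Tet2kd cultures (edgeR adjusted p = 0.0119). Its oxBS-seq values were 38.0%, 37.5% and 35.4% against 36.1%, 49.6% and 54.0%, with overlap. The last CpG cytosine, 92644670, 80 bases before the exon, had 36%, 40% and 36.8% against 42.1%, 50% and 45.7% in BS-seq (edgeR adjusted p = 0.0713). In oxBS-seq it had 30.4%, 17.9% and 27.4% against 49.2%, 25.8% and 34.1%, again with overlap. Neither upstream cytosine had overlapping genotypes in BS-seq, and the least deeply read cytosine of each BS-seq sample was one of these 2.

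**Figure D1:**
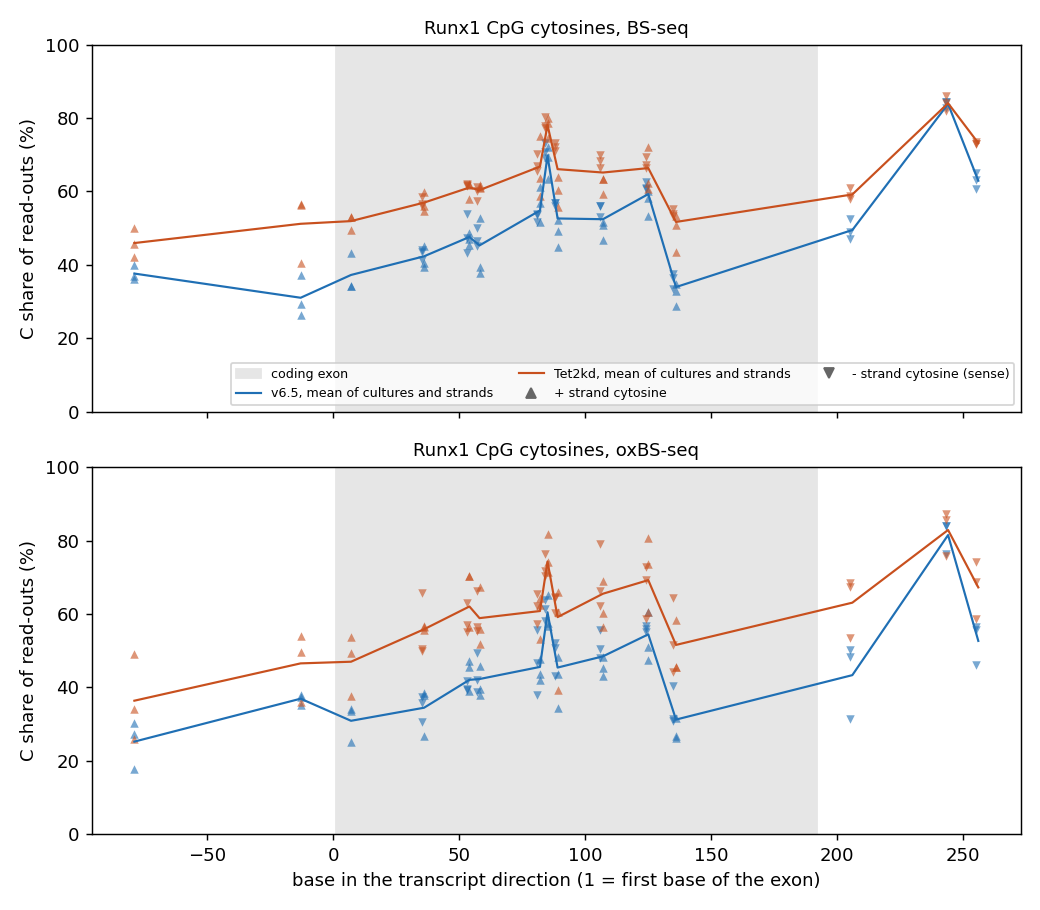
C share (%) of each Runx1 CpG cytosine in every culture against its base in the transcript direction (base 1 is the first of the exon, the grey band is the 192-base exon), BS-seq above and oxBS-seq below. Triangles pointing up are + strand and triangles pointing down − strand cytosines, and lines join the means over cultures and strands. The Tet2kd line (orange) runs above the v6.5 line (blue), and they come closest at the cytosine with the highest share, at 84.0% and 83.8% in BS-seq.

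The mean over the exon did not describe a contrast with its flanks, because one flank lay above it and the other below. In v6.5 BS-seq the downstream intron had a mean C share of 65.4% ± 0.497, the exon 50.2% ± 1.95 and the upstream intron 34.3% ± 2.5 (SD, n = 3 cultures). The same order held in Tet2kd BS-seq, at 72.1% ± 1.09, 63.0% ± 1.30 and 48.6% ± 3.02. With both flanks pooled, exon minus flank was −1.26 ± 2.63 percentage points in BS-seq (SD, n = 6 cultures), which the exact two-sided sign-flip permutation test did not separate from 0 (p = 0.28125, smallest possible 0.031), and −0.913 ± 3.82 points in oxBS-seq (same exact test, p = 0.625). Strand by strand, exon minus flank was 13.2 points against the upstream flank on the + strand and −10.02 points against the downstream flank on the − strand in BS-seq, and 15.004 and −10.9 points in oxBS-seq. Each of these 4 differences had the same sign in 6 of 6 cultures (exact sign-flip permutation test, p = 0.031, the smallest it can give). That test covers the spread between cultures, not between cytosines, and the flanks hold only 3 and 2 cytosines. In BS-seq the flank cytosine nearest the exon, 92644386, was below the − strand exon mean, at 49.5% against 52.3% in v6.5 and 59.2% against 65.2% in Tet2kd. In oxBS-seq it was below that mean in v6.5 only. The downstream flank was read only on the − strand and the upstream flank only on the + strand, so flank and strand cannot be told apart. The pooled difference between exon and flanks was higher in Tet2kd than in v6.5 by 3.10 points in BS-seq (exact permutation test, p = 0.2) and by 5.65 points in oxBS-seq (p = 0.1, the smallest that 3 against 3 cultures allow).

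Tet2kd was compared with v6.5 within each assay. No group of V6.5 cells with a control plasmid was included. Depletion of Tet2, the plasmid, puromycin selection and the picking of clones therefore cannot be told apart in this comparison. All 24 cytosines had a higher mean C share in Tet2kd cells in BS-seq, by 0.202 to 20.2 percentage points with a median of 12.7, and likewise all 24 in oxBS-seq, by 1.38 to 21.9 points with a median of 16.04. Averaged over the 24, the BS-seq C share was 62.4%, 63.8% and 62.6% in Tet2kd against 52.7%, 50.0% and 49.5% in v6.5, a difference of 12.2 points. In oxBS-seq it was 61.4%, 62.9% and 57.9% against 48.0%, 43.4% and 43.5%, a difference of 15.8 points. In both assays every Tet2kd culture was above every v6.5 culture, which gives the smallest p that an exact two-sided permutation test of 3 against 3 allows (p = 0.1). Of the 13 other loci, 5 had a larger difference in the mean BS-seq C share and 4 a larger one in oxBS-seq. The loci were picked by the study, most of them for differences between these same genotypes in earlier antibody-based maps, so the shares called among all CpG cytosines are those of selected loci.

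Tested cytosine by cytosine with edgeR's quasi-likelihood test on the C and T counts and Benjamini-Hochberg adjustment over all 384 CpG cytosines, 20 of the 24 were higher in Tet2kd BS-seq at an adjusted p under 0.05 and none was lower, while 58.6% of all CpG cytosines were called higher and 0.26% lower. In oxBS-seq 6 of the 24 were called higher and none lower, against 36.2% and 0.0% of all. The 6 were 92644455, 92644506, 92644537, 92644538, 92644555 and 92644556. At 22 of the 24 in BS-seq and 20 in oxBS-seq the 3 Tet2kd samples did not overlap the 3 v6.5 samples, against 56.2% and 49.2% of all CpG cytosines. The 4 cytosines not called in BS-seq were 92644348, 92644466, 92644509 and 92644670. Of the 20 BS-seq calls, 15 held when any one sample was left out. No oxBS-seq call did: without v6.5 oxBS-seq replicate 1 or replicate 2 a single call was left, and without replicate 3 there was none.

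**Figure D2:**
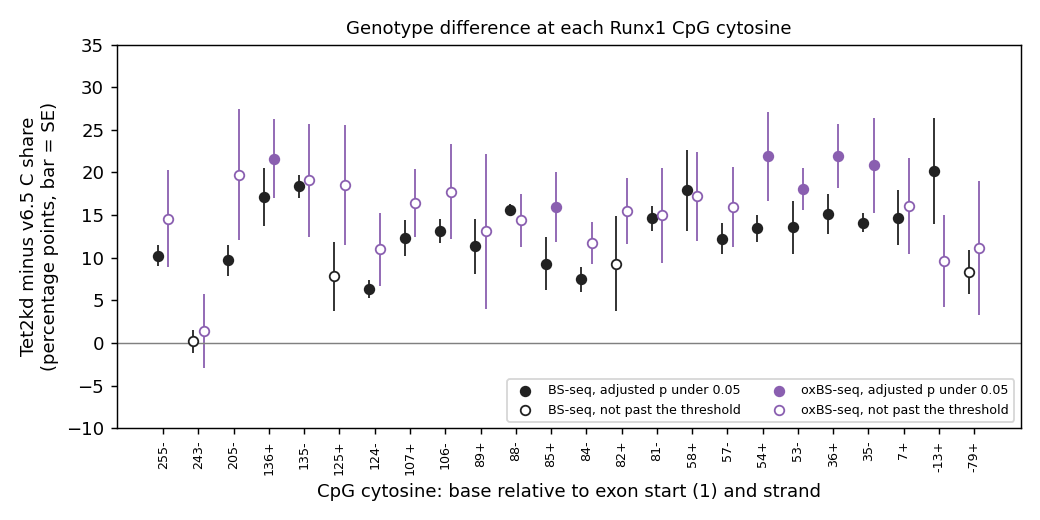
Tet2kd minus v6.5 C share (percentage points) at each of the 24 Runx1 CpG cytosines, in order of genome coordinate and named by base in the transcript direction and strand. Bars are the standard error of the difference of 2 means of 3 cultures, and filled points passed an adjusted p of 0.05 (20 in BS-seq, black, and 6 in oxBS-seq, purple). All points lie above 0, and the second cytosine lies closest to it.

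The smallest adjusted p in BS-seq belonged to the − strand cytosine at 92644456, in the last CpG of the exon. Its BS-seq C share was 33.3%, 37.5% and 36.4% in the v6.5 cultures against 54.0%, 53.2% and 55.2% in the Tet2kd cultures, a gap between the groups several times wider than the spread inside them (log2 odds ratio 1.08, edgeR adjusted p = 0.000174). In oxBS-seq the same cytosine gave 40.4%, 31.4% and 31.0% against 51.5%, 64.3% and 44.1%, and with this wider spread it did not pass (log2 odds ratio 1.10, edgeR adjusted p = 0.0597). The next was 92644503, on the − strand in the last CpG of the cluster, with 56.8%, 55.9% and 56.9% against 70.9%, 72.2% and 73.1% in BS-seq (log2 odds ratio 0.99, edgeR adjusted p = 0.00019). In oxBS-seq 92644503 had 50.9%, 52% and 43.1% against 60.4%, 64.5% and 64.3%, also without overlap. At 92644510, also − strand, the values were 53.5%, 51.8% and 53.8% against 65.7%, 67.0% and 70.3% (log2 odds ratio 0.90, edgeR adjusted p = 0.000506), and in oxBS-seq 55.6%, 38% and 46.6% against 57.4%, 65.5% and 62.2%. At each of these 3 cytosines the BS-seq SD between cultures was at most 2.35 points in both genotypes.

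The 3 smallest adjusted p values in oxBS-seq belonged to + strand cytosines of the exon. At 92644555 the oxBS-seq C share was 37.8%, 38.4% and 26.8% in the v6.5 cultures against 56.5%, 56.7% and 55.7% in the Tet2kd cultures (log2 odds ratio 1.30, edgeR adjusted p = 0.0175). At 92644455 it was 31.8%, 26.9% and 26.1% against 58.5%, 45.6% and 45.6% (log2 odds ratio 1.33, edgeR adjusted p = 0.019). At 92644537 it was 45.5%, 47.2% and 39.1% against 70.4%, 70.5% and 56.6% (log2 odds ratio 1.30, edgeR adjusted p = 0.0255), and in BS-seq 48.7%, 45.4% and 47.1% against 61.7%, 61.9% and 57.9%. None of the 3 had overlapping genotypes in oxBS-seq, and all 3 were also called in BS-seq. In oxBS-seq the median SD between cultures at one cytosine was 4.50 points in v6.5 and 7.65 in Tet2kd, against 2.63 and 2.12 in BS-seq. The median effect over the 24 cytosines was a log2 odds ratio of 0.74 in BS-seq and 0.98 in oxBS-seq, against 0.90 and 0.85 over all 384. The 384 include 64 cytosines of an X-chromosome locus with a mean C share of 0.227% in v6.5 and 0.727% in Tet2kd BS-seq. So near 0%, a small change in share can be a large odds ratio. The part of that locus in the medians was not tested.

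The profiles of the genotypes resembled each other. Across the 24 cytosines the v6.5 and Tet2kd means had a Pearson correlation of 0.960 in BS-seq and 0.929 in oxBS-seq, a description over points that share libraries and read depth. The SD between cytosines was 12.8 points in v6.5 and 9.58 in Tet2kd BS-seq, and 12.2 and 10.3 in oxBS-seq.

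The gap between BS-seq and oxBS-seq carries the 5hmC signal. In v6.5 cells the mean BS-seq C share over the 24 cytosines exceeded the oxBS-seq one by 4.73, 6.55 and 5.998 percentage points in the 3 cultures, or 5.76 ± 0.932 (SD, n = 3). In Tet2kd cells the gap was 0.966, 0.860 and 4.68 points, or 2.17 ± 2.18. All 6 gaps were positive, and the exact sign-flip test within a genotype cannot go below p = 0.25, the value found in both. Every v6.5 culture had a wider gap than every Tet2kd culture, with a Tet2kd minus v6.5 difference of −3.59 points (exact two-sided permutation test of 3 against 3, p = 0.1, the smallest possible). The gaps of single cultures, and so this separation, rest on pairing the BS-seq and oxBS-seq samples by culture. At these cytosines the deviations of paired samples from their group means correlated only between −0.566 and 0.0824. The raw gap does not compare 5hmC alone, since it also scales with the oxidation efficiency. In the lambda controls that efficiency was 75.8%, 44.5% and 71.9% in v6.5 against 59.9%, 51.3% and 43.9% in Tet2kd. Tet2kd replicate 3, at 4.68, lay just below the lowest v6.5 culture, at 4.73, and without it the Tet2kd gap was 0.913. The separation ended with other weights or members: the difference was −2.28 points with counts summed (exact permutation test, p = 0.4), −3.18 with the strands of a dyad averaged first (p = 0.2) and −5.39 at a minimum of 100 read-outs (p = 0.2), where the Tet2kd gap was 0.396. The 9 cytosines that reach 100 read-outs in all samples are all + strand cytosines of the exon.

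No single cytosine was called for the gap. The BS-seq C share was above the oxBS-seq one in all 3 v6.5 cultures at 15 cytosines and in all 3 Tet2kd cultures at 3, and on average at 23 and 19 of the 24. With edgeR's quasi-likelihood test and the culture as a block, none of the 24 was called in v6.5, where 3 had an unadjusted p under 0.05 and 4.95% of all CpG cytosines were called, and none in Tet2kd, where none had an unadjusted p under 0.05 and 1.3% of all were called. limma on the log odds also called none, with 5 and 1 at an unadjusted p under 0.05. The test of whether the gap differed between genotypes called none of the 24 and 0.0% of all CpG cytosines by edgeR, and none of the 24 by limma, with none of the 24 at an unadjusted p under 0.05 by either. At 92644509, the + strand cytosine of the cluster site nearest the exon start, the v6.5 gap was 19.3, 13.0 and 4.02 points, the largest mean gap among the exon cytosines. Its C share was 61.2%, 56.8% and 51.8% against 63.7%, 75.1% and 58.8% in BS-seq and 41.9%, 43.8% and 47.7% against 62.4%, 53.1% and 64.3% in oxBS-seq, with the genotypes (v6.5 first) overlapping in BS-seq only. The Tet2kd gap there was 1.25, 21.98 and −5.52 points, so that these cultures differed among themselves over a wider range than the v6.5 cultures.

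The C, 5mC and 5hmC proportions were estimated with the cytosine-level model of the study, which reads both assays of a culture together and takes conversion and oxidation from the lambda controls. From the hydroxymethylated control the oxidation efficiency was 75.8%, 44.5% and 71.9% in the v6.5 cultures and 59.9%, 51.3% and 43.9% in the Tet2kd cultures. The C share of that control in oxBS-seq, which is higher where less was oxidized, was 19.97%, 45.6% and 23.3% for v6.5 against 33.0%, 40.03% and 46.6% for Tet2kd. Oxidation was thus incomplete, unequal between cultures and overlapping between genotypes, with the 2 highest efficiencies in v6.5, and a lower efficiency leads to a larger 5hmC estimate from the same gap. Averaged over the 24 cytosines the unmodified C proportion was 46.1%, 49.2% and 49.6% in the v6.5 cultures against 34.7%, 34.5% and 35.9% in Tet2kd. The 5mC proportion was 45.0%, 36.4% and 40.8% in the v6.5 cultures against 56.5%, 54.2% and 51.4% in Tet2kd. Neither state overlapped between genotypes. C was lower in Tet2kd by a difference of −13.2 percentage points and 5mC higher by 13.3, both at p = 0.1, the smallest an exact permutation test of 3 against 3 allows.

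The 5hmC proportion was 8.90%, 14.5% and 9.64% in the v6.5 cultures against 8.82%, 11.2% and 12.7% in the Tet2kd cultures, with means of 11% ± 3.02 and 10.9% ± 1.97 (SD, n = 3). In this model the genotypes overlapped and differed by −0.0776 points (exact permutation test, p = 0.9). With oxidation and conversion taken as complete the same model gave 6.53%, 8.37% and 6.83% for v6.5 against 5.35%, 6.01% and 5.71% for Tet2kd, without overlap. The closed-form estimate, the gap scaled by the control efficiencies without a prior, gave 6.35%, 14.9% and 8.45% against 1.63%, 1.70% and 10.8%. Its genotypes overlapped too, with a difference of −5.19 points (exact permutation test, p = 0.3). The model proportion carries a prior and cannot fall below 0 at any cytosine. For Tet2kd cultures 1 and 2, with gaps of 0.966 and 0.860 points, it gave the 8.82% and 11.2% above. The 5hmC level in Tet2kd and the genotype difference therefore depended on the estimator. Among the 13 other loci, 3 had a higher mean 5hmC proportion than Runx1 in each genotype.

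**Figure D3:**
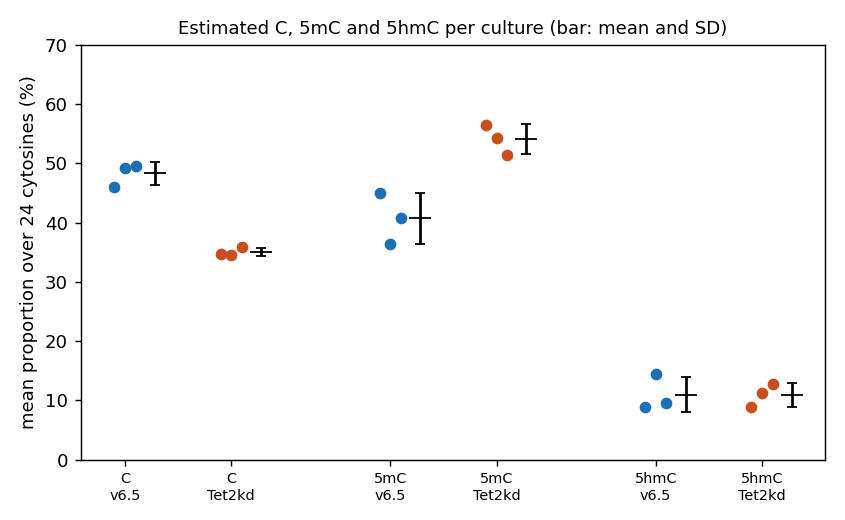
Mean C, 5mC and 5hmC proportion (%) by the model with its prior, over the 24 Runx1 CpG cytosines in each culture (points), with the mean and SD of 3 cultures beside them. Tet2kd (orange) is below v6.5 (blue) in C and above it in 5mC without overlap, and the 5hmC points of both genotypes lie between 8.82% and 14.5% and overlap.

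Over single cytosines the mean 5mC proportion was higher in Tet2kd at 23 of 24 and lower at 1, which was 92644348, at 78.0% ± 3.74 in v6.5 and 74.8% ± 9.06 in Tet2kd (SD, n = 3). The mean 5hmC proportion was lower in Tet2kd at 13 and higher at 11, with differences between −7.06 and 8.55 points. The Bayes factor weighs any difference between genotypes in the 3 proportions taken jointly against none. It did not exceed 1 at any of the 24 cytosines and ran from 0.0622 at 92644348 to 0.506 at 92644503, while 7.81% of all CpG cytosines exceeded 1. By edgeR 20 of the 24 were called higher in Tet2kd BS-seq, so the calls depended on the method, and the reason was not tested. The largest values were 0.506 at 92644503, 0.498 at 92644555 and 0.488 at 92644509. At 92644503 the 5mC proportion was 48.3%, 42.4% and 38.2% in the v6.5 cultures against 54.2%, 57.0% and 53.9% in the Tet2kd cultures. At 92644555 it was 35.6%, 30.7% and 23.3% against 53.8%, 53.1% and 53.2%. At 92644509 it was 36.8%, 31.8% and 43.6% against 59.4%, 36.5% and 61.6%, and of these 3 cytosines it alone had overlapping genotypes.

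The 2 strands of a CpG were compared at the 9 dyads of the exon with both cytosines read. The C shares of the strands followed each other. Across the 9 dyads the correlation between + and − strand means was 0.953 in v6.5 and 0.858 in Tet2kd BS-seq, and 0.938 and 0.776 in oxBS-seq, as a description over points from the same libraries. The mean + minus − difference was −0.318, −4.01 and −4.38 percentage points in the v6.5 BS-seq cultures and −2.99, 0.722 and −7.01 in Tet2kd, or −3.00 ± 2.83 over the 6 (exact sign-flip permutation test, p = 0.09375). In oxBS-seq that mean was −3.03, −0.577 and −4.22 for v6.5 against 5.69, −7.97 and 0.601 for Tet2kd, or −1.58 ± 4.66 (exact sign-flip permutation test, p = 0.46875). This oxBS-seq mean was −3.04 without Tet2kd replicate 1 and −0.307 without Tet2kd replicate 2. Strand differences did not separate the genotypes in BS-seq (difference −0.19 points, exact permutation test, p = 1) or oxBS-seq (2.05 points, p = 0.7). The mean absolute difference between the strands of a dyad was between 2.78 and 13.9 points in the 12 samples, and the highest value was that of Tet2kd oxBS-seq replicate 2.

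**Figure D4:**
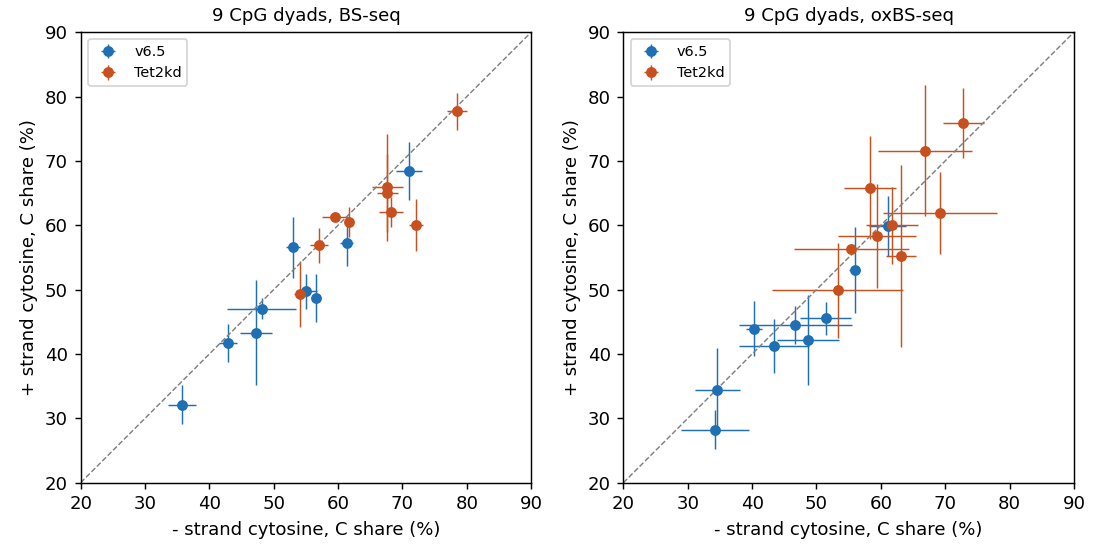
C share (%) of the + strand cytosine against that of the − strand cytosine at the 9 exon dyads with both strands read, for BS-seq and oxBS-seq. Points are means and bars SDs of 3 cultures, and the dashed line marks equal shares. The dyads stay near the line, more of them below it than above it in BS-seq, and the bars are longest in Tet2kd oxBS-seq.

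At 2 of the 9 dyads (22.2%) the strands differed in BS-seq by edgeR's quasi-likelihood test over all 170 dyads of the data set, of which 24.1% were called. The share of dyads called at Runx1 was thus close to that of the whole data set. At 92644502/92644503 the + strand had 52.3%, 49.2% and 44.7% for v6.5 and 60.3%, 64.0% and 55.9% for Tet2kd, while the − strand had 56.8%, 55.9% and 56.9% and 70.9%, 72.2% and 73.1%. The + strand was lower in 6 of 6 cultures, with a mean difference of −9.92 ± 4.49 points (log2 odds ratio −0.63, edgeR adjusted p = 0.0037), and the call held without any one sample. At 92644484/92644485 the + strand had 51.8%, 50.8% and 46.7% for v6.5 and 63.5%, 63.4% and 59.3% for Tet2kd. The − strand of that dyad had 56.2%, 53.1% and 55.9% and 66.3%, 70.04% and 68.3%, higher in 6 of 6 cultures, with a + minus − difference of −5.72 ± 3.02 points (log2 odds ratio −0.37, edgeR adjusted p = 0.0343). This call was lost without v6.5 BS-seq replicate 1 or 3 or Tet2kd BS-seq replicate 2 or 3, each of which left 1 call.

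The dyad with the next largest mean difference, 92644455/92644456, had 32.9%, 28.8% and 34.8% on the + strand and 33.3%, 37.5% and 36.4% on the − strand in v6.5 BS-seq. In Tet2kd it had 43.5%, 53.4% and 50.9% against 54.0%, 53.2% and 55.2%, and it was not called (edgeR adjusted p = 0.179). The smallest mean difference was at 92644555/92644556, with 45.1%, 39.5% and 40.5% on the + strand against 43.4%, 44.0% and 41.4% on the − strand in v6.5, and 56.1%, 59.9% and 54.6% against 56.5%, 56.1% and 58.6% in Tet2kd (edgeR adjusted p = 0.834). The + minus − difference of the 2 called dyads in oxBS-seq was −7.15 ± 10.3 points at 92644502/92644503 and −6.58 ± 6.92 at 92644484/92644485, each with the − strand higher in 5 of 6 cultures. The oxBS-seq C shares of 92644502 were 48.3%, 43.8% and 34.5% against 66%, 39.3% and 60.6%, v6.5 first. Those of 92644484 were 45.2%, 43.1% and 48.3% against 69%, 60.3% and 56.4%, and those of 92644485 were 50.6%, 48% and 55.7% against 66.3%, 79.1% and 62.1%. At 92644556 they were 37.3%, 30.6% and 35.9% against 50.5%, 65.7% and 50.1%. In oxBS-seq none of the 9 dyads was called, with none at an unadjusted p under 0.05 by edgeR or limma, and 2.35% of all dyads were called. The strand difference changed with genotype at none of the 9 dyads in either assay by edgeR, with none at an unadjusted p under 0.05, and at 0.0% of all dyads.

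The strands were read to different depths. In BS-seq the − strand was deeper in 6 of 6 libraries, with a ratio of + to − strand median read-outs between 0.0326 and 0.849, and in oxBS-seq the + strand was deeper in 5 of 6, with ratios between 0.0967 and 3.99. Strand and amplified product cannot be told apart, and the part of the unequal depth in the strand differences was not tested. A mean weighted by read-outs therefore draws on the strands in different shares in the 2 assays. Summed over counts, the gap between BS-seq and oxBS-seq was 7.71 points in v6.5 and 5.43 in Tet2kd, against 5.76 and 2.17 with all cytosines weighted equally.

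**Figure D5:**
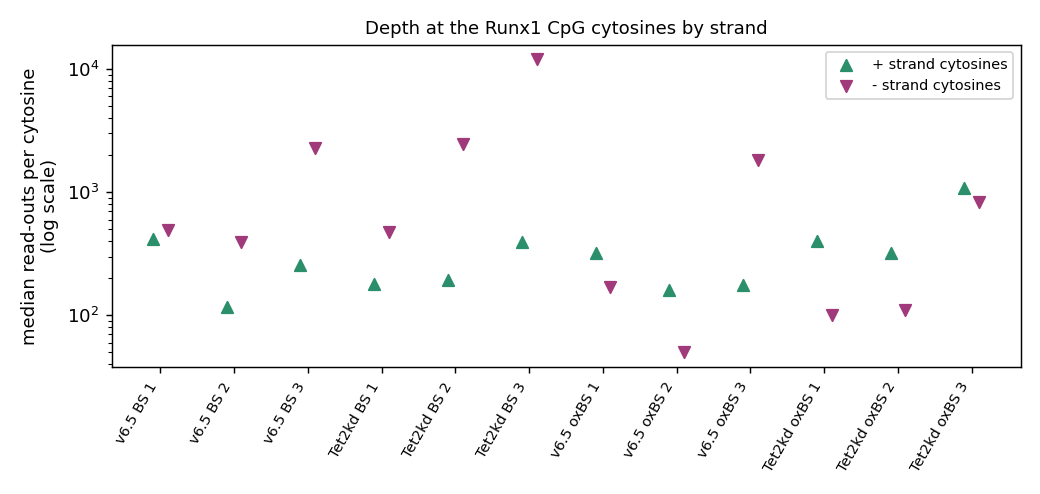
Median read-outs per Runx1 CpG cytosine (log scale) on the + strand (triangles up) and − strand (triangles down) in each of the 12 samples. The − strand is deeper in all 6 BS-seq samples, up to 12003 against 391 in Tet2kd BS-seq replicate 3, and the + strand in 5 of 6 oxBS-seq samples.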

How the data were processed

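The authors aligned reads with Bismark 0.7.12 and Bowtie2 to mm9 and the lambda genome, counted overlapping mates once, kept cytosines with 10 or more read-outs, and deposited C and T read-out counts per cytosine, not normalized. The deposited percent column was only checked against the counts. Positions were raised by 1, and strand and context were read from mm9. The members, lists and tests were chosen with earlier results of these data known. C and T counts were tested with edgeR 4.0.16 in R 4.3.3 (quasi-likelihood, 1 term per sample for its total, no replicate block for genotype). limma 3.58.1 used log2((C + 0.5)/(T + 0.5)). BS-seq and oxBS-seq of one culture shared a block, since both come from one DNA. Their deviations from group means correlated between −0.209 and 0.12 over all 384 CpG cytosines. The hierarchical model of the study (Dirichlet prior 0.8) was sampled with own code in Python 3.11.15 and numba 0.67.0, 2000 warm-up sweeps and 1000 draws 10 sweeps apart, with conversion and oxidation fixed at estimates from the Watson-strand lambda controls. Bayes factors were Savage-Dickey ratios. Exact permutation tests were two-sided, over cultures. Code was tested on simulated data. Values in every sample are given for the first and last cytosine, the extremes, the 3 smallest adjusted p per assay, the 3 largest Bayes factors, and the 3 dyads with the largest and 1 with the smallest strand difference. Replicates of a group differed by more than counting error, most of all in Tet2kd oxBS-seq. Over the CpG cytosines of all loci, the chi-square per cytosine between 2 replicates was 4.34 to 12.9 in BS-seq. It was 12.8 to 17.0 in v6.5 oxBS-seq and 39.9 to 42.7 in Tet2kd oxBS-seq. Alternatives were limma, Fisher's exact test, quasi-binomial regression, a replicate block, a minimum of 100 read-outs, a threshold of 0.01, summed counts, other model settings and leaving out each replicate.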

Additional observations from a re-analysis of the deposited data

Results flagged for a closer look

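Outside the CpG cytosines, 7 of the 159 non-CpG cytosines of the Runx1 interval had a C share above that of the unmethylated lambda control in each of the 12 samples. Their mean C shares over the 12 samples were 2.98% at 92644436, 6.56% at 92644483, 2.12% at 92644701, 8.37% at 92644703, 4.78% at 92644705, 24.1% at 92644707 and 35.6% at 92644709. The last 5 are + strand cytosines of one stretch of the upstream intron rich in C and T, shown because it carries the highest non-CpG C shares, with those 5 in capitals. Other cytosines of that stretch, in lower case, were above the control in 11 of the 12 samples. These were 92644716 at a mean of 14.7%, 92644706 at 4.59%, 92644711 at 3.04% and 92644702 at 2.69%.
chr16:92644696-92644719, + strand, mm9: ctttcCcCtCcCtCtcccttcacc
At 92644709 the C share was 41.9%, 38.9% and 36.8% in v6.5 BS-seq, 50.8%, 61.5% and 30.6% in Tet2kd BS-seq, 6.06%, 35.3% and 42.6% in v6.5 oxBS-seq and 42.6%, 31.3% and 8.62% in Tet2kd oxBS-seq. At 92644707 the 12 samples ranged from 8.82% to 41.7%. Samples of every group overlapped those of the other groups at 92644707, and read-outs there were as few as 36 in one sample. The − strand cytosine at 92644483, next to the dyad 92644484/92644485, ranged from 4.23% to 7.57%. None of the 24 CpG cytosines lies in that stretch.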

How the results depend on the processing

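The rise of the mean C share in Tet2kd kept its sign in both assays under every alternative tried, and with one culture left out it was 11.6 to 13.2 points without oxidation and 14.7 to 17.3 after it. The number of BS-seq genotype calls was 7 of the 9 cytosines that reached 100 read-outs in all samples and 13 at an adjusted p of 0.01, and 16 to 20 with one sample left out. Those 9 are all + strand cytosines of the exon, so this minimum drops the − strand and both flanks. The 6 oxBS-seq calls became 23 with Fisher's exact test on summed counts, 10 with limma, 8 of the 9 cytosines at 100 read-outs, 0 at an adjusted p of 0.01 and 0 to 8 with one sample left out. With the replicate number as a block the calls were 20 in BS-seq and 3 in oxBS-seq. Same-numbered samples of the 2 genotypes correlated between −0.0929 and 0.103 in their deviations over all 384 CpG cytosines, and between −0.169 and 0.397 over the 24 of Runx1, where 4 of 6 were negative. The numbers were taken not to pair them, and the block changed no other call. Without the culture as a block, 0 cytosines were called for assay in either genotype, as with it. In v6.5, 1 cytosine (92644509) was called for assay at 100 read-outs. Strand calls in BS-seq fell from 2 to 1 with limma or an adjusted p of 0.01, and were 1 to 2 with one sample left out. No exon dyad had 100 read-outs on both strands in all samples, so that alternative was not run.

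At 100 read-outs, with + strand exon cytosines only, the gap between assays was narrower in Tet2kd by a difference of −5.39 points, and the proportions differed by −14.9 points in C, 17.7 in 5mC and −2.74 in 5hmC. The part of depth in these shifts was not tested. The closed-form estimate gave 17.6 in 5mC and −5.19 in 5hmC. The Tet2kd gap was 0.396 at 100 read-outs and ran from 0.913 to 2.82 with one culture left out. Summed counts gave a gap of 7.71 points in v6.5 and 5.43 in Tet2kd. The 5hmC difference ran from −2.56 to 1.69 with one culture left out. One Bayes factor (92644509, 1.16) exceeded 1 without v6.5 replicate 3, so that the count ran from 0 to 1. The exon minus flank difference was −7.92 points (BS-seq) and 0.342 (oxBS-seq) with summed counts, 13.2 and 15.004 on the + strand, −10.02 and −10.9 on the − strand, and with one culture left out ran from −2.17 (without Tet2kd replicate 2) to −0.648 (without v6.5 replicate 2) in BS-seq and from −1.60 (without Tet2kd replicate 1) to 0.195 (without v6.5 replicate 3) in oxBS-seq. With one strand, one flank alone enters the difference. Otherwise the cause was not tested.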
